A study of Mus musculus with 6 samples.

Results

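The genes described were 10 mouse protease genes, chosen by name from a table of 34745 genes: the mast cell proteases Mcpt1, Mcpt2, Mcpt4 and Mcpt8, the chymase Cma1, carboxypeptidase A3 (Cpa3), the tryptases Tpsb2 and Tpsab1, and the granzymes Gzmd and Gzme. They were picked with their own levels in these samples in view, so their differences between stages are given as a description, with no test. The RNA came from stromal cells of the mesenchymal type (LMSCs) grown out of the lungs of MMTV-PyMT mice, which carry the polyoma middle T oncogene under a mammary tumor virus promoter and develop mammary tumors that spread to the lung. All groups carried the transgene, and the study's mice were of the FVB background. A-LMSCs came from mice at the adenoma stage, labelled 6 to 7 weeks old, PM-LMSCs from the pre-metastatic stage at 9 to 10 weeks, and M-LMSCs from the metastatic stage at 13 to 14 weeks. The study's methods give other ages for the earlier stages. Each stage had 2 libraries, whereas the study used 3 mice per stage, and any further libraries were not analysed here. Digested lung was plated, the cells that adhered were depleted of blood cells by CD45 beads, and the CD45- cells were used at passage 3, so the libraries measured what remained after culture rather than the lung itself. The study counts its RNA-seq replicates as mice, while the labels do not tie a library to a mouse.

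The proteases of this group are made as stored enzymes of granules. Chymases and tryptases fill the secretory granules of mast cells, Cpa3 is packed with them, and Mcpt8 is best known from basophils. Granzymes are granule proteases of cytotoxic lymphocytes, but the D and E forms are also known from other cells. In the mouse, the chymase and granzyme genes lie side by side in one gene cluster, while the tryptases and Cpa3 lie elsewhere.

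Of the 10 genes, 7 lay in that cluster on chromosome 14 (GRCm38, GENCODE M21 annotation), which spanned chr14:55941451-56262260, or 320.81 kb, and held 15 of the genes listed. From its left end the order of the 7 was Cma1 (chr14:55941451-55944675, minus strand), Mcpt1 (chr14:56017971-56020384, plus strand), Mcpt2 (chr14:56042041-56044642, plus strand), Mcpt4 (chr14:56059629-56062313, minus strand), Mcpt8 (chr14:56082166-56085273, minus strand), Gzme (chr14:56117626-56120625, minus strand) and Gzmd (chr14:56129556-56132608, minus strand). The tryptases Tpsab1 (chr17:25343245-25345562, minus strand) and Tpsb2 (chr17:25366305-25369098, plus strand) were neighbours on chromosome 17. Cpa3 stood alone on chromosome 3 (chr3:20215620-20242181, minus strand). The values belong to whole genes, so exons, introns and UTRs were not told apart.

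The promoters of the 3 genes with the most RNA, and of near-copies of them listed at lower levels or at 0, are shown because the genes share a cluster and differ in listed level. RefSeq sequences (GRCm38.p6) were found for 7 of the 10 genes, and each line holds the 250 bases upstream of the RefSeq start, 5' to 3' on the strand of the gene. Capitals mark matches to 6 motifs, searched on both strands. The motif of GATA factors was spelled GATAA, and 22.58% of 32851 promoters of the same length held it. That of RUNX factors was spelled ACCACA and was held by 14.05% of them. The AP-1 motif, TGANTCA, was held by 6.749%, and the MITF motif, CATGTG, by 12.25%. The usual core promoter box was spelled TATAAA and was held by 12.37%. A run of like letters, TTTAAA, was held by 12.08% and is called the T-run here. Mcpt8 is chr14:56085198-56085447, Gzme chr14:56120626-56120875, Gzmd chr14:56132594-56132843, Gzmg chr14:56159580-56159829, Mcpt1 chr14:56017714-56017963 and Mcpt4 chr14:56062311-56062560.
Mcpt8: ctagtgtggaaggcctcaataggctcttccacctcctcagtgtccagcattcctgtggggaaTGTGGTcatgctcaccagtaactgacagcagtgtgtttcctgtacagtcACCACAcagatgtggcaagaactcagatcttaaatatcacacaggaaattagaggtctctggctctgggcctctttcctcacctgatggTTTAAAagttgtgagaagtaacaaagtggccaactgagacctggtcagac
Gzme: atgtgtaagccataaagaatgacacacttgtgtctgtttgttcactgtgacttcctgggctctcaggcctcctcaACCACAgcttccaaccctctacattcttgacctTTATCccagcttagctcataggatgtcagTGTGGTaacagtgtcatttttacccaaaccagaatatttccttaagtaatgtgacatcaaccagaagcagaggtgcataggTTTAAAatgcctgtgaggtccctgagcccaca
Gzmd: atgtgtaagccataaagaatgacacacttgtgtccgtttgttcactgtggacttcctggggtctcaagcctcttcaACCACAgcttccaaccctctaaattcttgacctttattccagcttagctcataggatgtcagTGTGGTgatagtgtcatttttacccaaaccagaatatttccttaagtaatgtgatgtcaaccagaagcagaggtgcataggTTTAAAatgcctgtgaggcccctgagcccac
Gzmg: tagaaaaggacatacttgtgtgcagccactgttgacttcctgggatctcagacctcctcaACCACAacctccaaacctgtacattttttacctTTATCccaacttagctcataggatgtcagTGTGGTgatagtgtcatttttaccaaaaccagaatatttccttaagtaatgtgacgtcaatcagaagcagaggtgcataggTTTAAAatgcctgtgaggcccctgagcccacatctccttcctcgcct
Mcpt1: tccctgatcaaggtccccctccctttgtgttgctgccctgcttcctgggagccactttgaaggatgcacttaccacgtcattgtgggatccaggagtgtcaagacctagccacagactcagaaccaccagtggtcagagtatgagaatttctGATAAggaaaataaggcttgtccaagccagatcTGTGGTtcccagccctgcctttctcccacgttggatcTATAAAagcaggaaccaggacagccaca
Mcpt4: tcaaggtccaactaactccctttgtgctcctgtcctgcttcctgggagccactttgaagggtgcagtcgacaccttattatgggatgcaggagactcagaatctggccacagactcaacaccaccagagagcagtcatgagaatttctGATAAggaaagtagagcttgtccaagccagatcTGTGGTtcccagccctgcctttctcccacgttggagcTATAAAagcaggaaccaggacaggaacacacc

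The Gzme and Gzmd promoters matched at 95.58% of 249 aligned bases. Each held a pair of RUNX matches and a T-run, at -32 from the start in Gzme and at -31 in Gzmd, while a GATA-factor match at -142 stood in Gzme and was not found in Gzmd. Gzmg, which was listed at 0 in all 6 libraries, had the same set of motifs as Gzme in a promoter 90.99% identical to it. Mcpt1 and Mcpt4 matched at 86.36% of 242 aligned bases, with a GATA-factor match, a RUNX match and the core promoter box in the same order, at -98, -65 and -28 in Mcpt1. The Mcpt8 promoter had RUNX matches at -188 and -139, a T-run at -50 and no GATA-factor match. No AP-1 or MITF match was found in these 6. Matching letters do not show that a factor was bound there.

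Levels are given as FPKM, fragments scaled to the length of the gene and the size of the library, so they can be compared between genes. Mcpt8 had the highest mean of the 10 over the 6 libraries, at 9.14 FPKM, followed by Gzme at 6.45 and Mcpt1 at 1.33. Each of the other 7 stayed below 1 FPKM in every library. In single libraries, Mcpt8 was above Gzme in 5 of 6, Gzme above Mcpt1 in 6 of 6, and Mcpt1 above Gzmd, the next in order, in 6 of 6. The ranges over libraries of every pair of neighbours in the order overlapped. Mcpt8 and Gzme together made up between 85.1% and 92.0% of the summed FPKM of the 10 genes. That sum was 30.6 and 31.7 in the A-LMSC libraries, 13.7 and 11.3 in the PM-LMSC libraries, and 16.8 and 3.41 in the M-LMSC libraries.

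Mcpt8 (ENSMUSG00000022157) stood at 17.7 and 16.5 FPKM in A-LMSC replicates 1 and 2, 6.65 and 5.37 in PM-LMSCs, and 6.79 and 1.83 in M-LMSCs. Both A-LMSC libraries were above all 4 later libraries, and M-LMSC replicate 2 was the lowest. Stage means were 17.1 ± 0.825 FPKM (SD, n = 2), 6.01 ± 0.901 and 4.31 ± 3.50. The A-LMSC mean was 2.84 times that of PM-LMSCs and 3.97 times that of M-LMSCs. These levels rested on about 368 and 288 fragments in A-LMSCs, 98 and 85 in PM-LMSCs, and 112 and 30 in M-LMSCs, estimated from the spacing of low values. On the log2(FPKM + 1) scale, which understates changes of low genes, the difference from A-LMSCs was -1.37 for PM-LMSCs and -1.94 for M-LMSCs, the 10th and 7th lowest of the 10279 genes whose mean reached 1 FPKM. Median differences over those genes were 0.01 and 0.03. Mcpt8 was picked with its levels in these stages in view, so nothing is read from its ranks.

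Gzme (ENSMUSG00000022156), a granzyme, had 9.09 and 10.6 FPKM in A-LMSCs, 5.42 and 4.71 in PM-LMSCs, and 7.53 and 1.31 in M-LMSCs. The A-LMSC libraries were again above the other 4, but M-LMSC replicate 1 lay nearer to them than to its own replicate. Stage means were 9.87 ± 1.10 FPKM (SD, n = 2), 5.07 ± 0.509 and 4.42 ± 4.40, and the log2 differences from A-LMSCs were -0.84 and -1.29. The estimated fragments were 174 and 171, 73 and 68, and 114 and 20. Mcpt8 did not keep a fixed ratio to Gzme, which was 1.94 and 1.55 in A-LMSCs, 1.23 and 1.14 in PM-LMSCs, and 0.901 and 1.40 in M-LMSCs.

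Mcpt1 (ENSMUSG00000022227), a mast cell chymase of mucosal tissues, was listed at 2.75 and 2.89 FPKM in A-LMSCs, 0.987 and 0.306 in PM-LMSCs, and 1.00 and 0.0587 in M-LMSCs. These were 59 and 52, 15 and 5, and 17 and 1 fragments, so the level of M-LMSC replicate 2 rested on a single fragment. The 2 A-LMSC libraries did not overlap with the later ones. Means were 2.82 ± 0.0969 FPKM (SD, n = 2), 0.647 ± 0.482 and 0.529 ± 0.665, with log2 differences from A-LMSCs of -1.25 and -1.39. Mcpt1 reached a mean of 1 FPKM through its A-LMSC level.

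The order of the later stages turned when single libraries were left out. M-LMSCs were below PM-LMSCs by -0.57 for Mcpt8, -0.45 for Gzme and -0.15 for Mcpt1 on the log2 scale, yet without M-LMSC replicate 2 the differences were 0.16, 0.49 and 0.31. For Mcpt1 the difference was also above 0 without PM-LMSC replicate 1, at 0.16. The differences from A-LMSCs kept their sign without M-LMSC replicate 2, at -1.22 for Mcpt8, -0.35 for Gzme and -0.93 for Mcpt1. Between libraries with the same replicate number, Mcpt8 in M-LMSCs was 38.4% of the A-LMSC level for number 1 and 11.1% for number 2, while Gzme was 82.8% and 12.3%. In PM-LMSCs the corresponding shares were 37.6% and 32.6% for Mcpt8 and 59.7% and 44.2% for Gzme. The PM-LMSC shares of these genes were thus closer to each other than the M-LMSC shares. In bulk libraries like these, fewer cells of a type and less RNA per cell cannot be told apart.

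**Figure D1:**
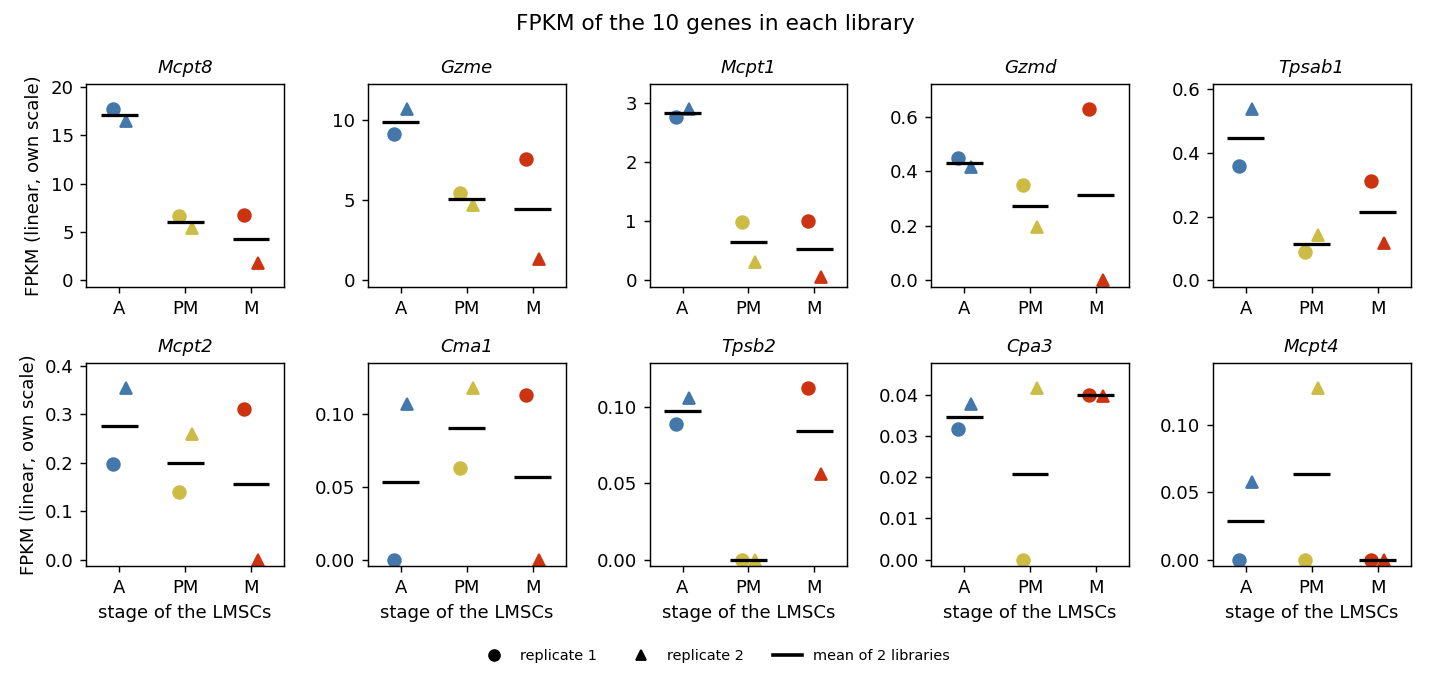
FPKM of each of the 10 genes (y axis, linear, on its own scale) in the 2 libraries of each stage (x axis), with circles for replicate 1, triangles for replicate 2 and bars for the mean of 2 libraries. Mcpt8, Gzme, Mcpt1 and Tpsab1 have both A-LMSC libraries above all 4 later ones, and for Mcpt8, Gzme and Mcpt1 the M-LMSC libraries lie far apart, at 6.79 and 1.83 FPKM for Mcpt8.

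Gzmd, the granzyme next to Gzme, was much lower, at 0.448 and 0.415 FPKM in A-LMSCs, 0.351 and 0.196 in PM-LMSCs, and 0.627 and 0 in M-LMSCs. Its highest and its lowest library were thus both of the metastatic stage, on 10 and 0 fragments, where 0 fragments allow a level of up to 0.188 FPKM. Limits of this kind take 3 fragments, over the annotated exon length, as the most that a count of 0 allows and cover counting error only. Gzmd and Gzme transcripts matched at 94.76% of 916 aligned bases, and 21.86% of the 50-base windows of Gzmd and 20.65% of those of Gzme also occurred in other genes, which fell to 0.231% and 0% for 100-base windows. Part of the low Gzmd level may belong to Gzme, since the counting rule is not given. Mcpt8, Mcpt1 and Mcpt2 shared no 50-base window with another gene.

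The other mast cell chymases were close to the limit of detection. Mcpt2, of mucosal mast cells, was listed at 0.198 and 0.353 FPKM in A-LMSCs, 0.139 and 0.259 in PM-LMSCs, and 0.311 and 0 in M-LMSCs, on 0 to 6 fragments. Mcpt4, of connective tissue mast cells, was above 0 in 2 of 6 libraries, A-LMSC replicate 2 (0.0577 FPKM, 1 fragment) and PM-LMSC replicate 2 (0.127 FPKM, 2 fragments). Cma1, the alpha-chymase, had at most 2 fragments in any library, with 0 and 0.106 FPKM in A-LMSCs, 0.0630 and 0.117 in PM-LMSCs, and 0.113 and 0 in M-LMSCs. For these genes no difference between stages was detectable at this depth.

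Of the members outside the cluster, the tryptase Tpsab1 was the highest. It had 0.358 and 0.537 FPKM in A-LMSCs, 0.0878 and 0.143 in PM-LMSCs, and 0.314 and 0.117 in M-LMSCs, from 23 and 29, 4 and 7, and 16 and 6 fragments. Both A-LMSC libraries were above the later ones, though M-LMSC replicate 1 was only slightly below A-LMSC replicate 1. For Tpsb2, the neighbouring tryptase, the A-LMSC libraries gave 0.0888 and 0.106 FPKM and the M-LMSC libraries 0.112 and 0.0558. It was listed at 0 in both PM-LMSC libraries, where 3 fragments over its annotated exon length would be 0.127 and 0.119 FPKM. These limits are rough, since the spacing of its values implies another length. With an estimated 4 fragments at most in a library, its stages could not be separated. Cpa3, among the most abundant transcripts of mast cells, gave 1 fragment in each of 5 libraries and 0 in PM-LMSC replicate 1, or at most 0.0415 FPKM.

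Counted over the 10 genes, 6 had both PM-LMSC libraries below both A-LMSC libraries and 0 had both above. Among all 10279 genes whose mean reached 1 FPKM, 19.7% were placed lower and 19.6% higher in this way. For M-LMSCs, 4 of the 10 were lower and 1, Cpa3, was higher on its single fragments, against 24.4% lower and 27.1% higher of the 10279. All 4 later libraries were below both A-LMSC libraries for 4 of the 10 (Mcpt8, Gzme, Mcpt1 and Tpsab1), and above them for 0, against 10.7% of the 10279 in either direction. The genes were picked on these contrasts, so nothing is read from the counts, and only Mcpt8, Gzme and Mcpt1 had the mean of 1 FPKM that the share of all genes was taken over.

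The rest of the cluster was listed at low levels or at 0. Cma2, a chymase gene between Cma1 and Mcpt1, had 0.962 and 0.362 FPKM in A-LMSCs, 0.0714 and 0 in PM-LMSCs, and 0.0638 and 0.127 in M-LMSCs, or 19 and 6, 1 and 0, and 1 and 2 fragments. It was thus highest in both A-LMSC libraries, as were Mcpt8, Gzme and Mcpt1. A share of 46.55% of its 50-base windows also occurred in Mcpt4 or Mcpt9, and its transcript matched that of Mcpt9 at 98.15% of 809 bases, so its reads cannot be placed with certainty. Gzmc, at 0.0646 to 0.259 FPKM, was highest in M-LMSC replicate 1, the library in which Gzmd was highest too. Gzmb, the main granzyme of killer cells, was above 0 in 2 libraries and reached 0.0853 FPKM, and Mcpt9 was above 0 in 1. Ctsg, Gzmf, Gzmg and Gzmn were listed at 0 in all 6 libraries. A listed 0 does not show absence here, since mt-Co2, a mitochondrial gene used by every cell, was also listed at 0 in all 6.

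**Figure D2:**
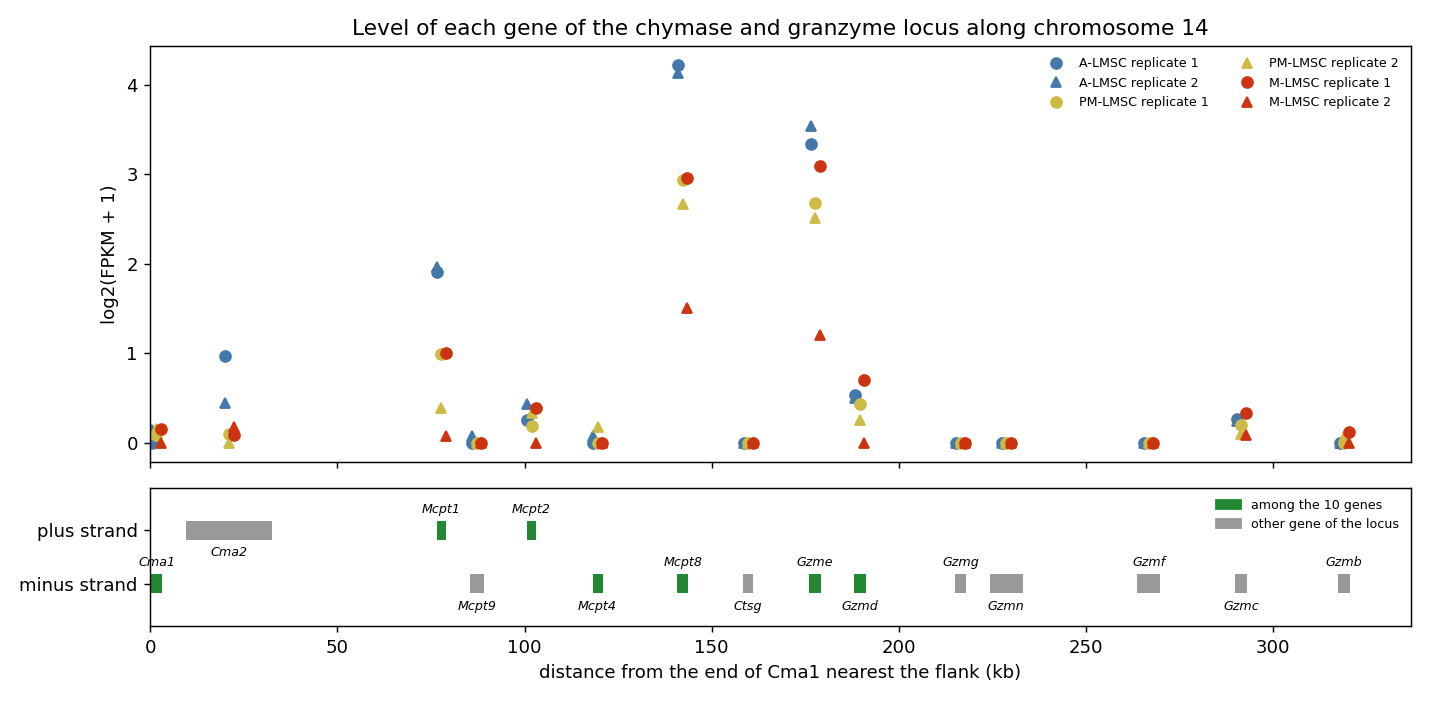
Level of each of the 15 cluster genes as log2(FPKM + 1) (upper y axis) by distance from the left end of Cma1 in kb (x axis), with the genes drawn by strand below. Points of 1 gene are set slightly apart by stage. Mcpt8 and Gzme carry the highest points, Mcpt1 follows, and Ctsg, Gzmg, Gzmn and Gzmf between or beyond them stay at 0.

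The genes on either side of the cluster were examined to see whether the region as a whole differed. Of the 5 nearest listed protein-coding genes on each side, 6 reached a mean of 1 FPKM and were tested by limma for PM-LMSCs minus A-LMSCs, M-LMSCs minus A-LMSCs and M-LMSCs minus PM-LMSCs, written PM-A, M-A and M-PM. In the PM-A, M-A and M-PM contrasts 0 of the 6 passed an adjusted p of 0.05, with 0, 1 and 0 at an unadjusted p under 0.05. The one was Nynrin, on the side of Cma1, at 4.46 and 4.0 FPKM in A-LMSCs, 2.91 and 3.56 in PM-LMSCs, and 3.25 and 3.04 in M-LMSCs. Its M-A log2 difference was -0.34 (SE 0.131, limma adjusted p = 0.311). Parp4, on the side of Gzmb, stayed between 3.53 and 4.43 FPKM. Of the 6 tested, 3 had both PM-LMSC libraries below both A-LMSC libraries and 0 above, against 19.7% and 19.6% of all genes tested. In M-LMSCs 1 was below and 1 above, against 24.4% and 27.1%. All 4 later libraries were below both A-LMSC libraries for 1, Nynrin, and above them for 0, against 10.7% in either direction.

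Whether mast cell genes outside the cluster followed was asked of 20 genes with no protease among the 10. Of these, 4 (the high-affinity IgE receptor alpha chain Fcer1a, the mast cell receptors Mrgprb1 and Mrgprb2, and the tryptase Tpsg1) were listed at 0 in all 6 libraries, and 5 reached a mean of 1 FPKM. By limma on all 10279 genes, 0 of the 5 passed an adjusted p of 0.05 in any contrast, with 1, 2 and 1 at an unadjusted p under 0.05, while 0.0389%, 0.0681% and 0.0292% of all genes passed in PM-A, M-A and M-PM. The median log2 difference of the 5 (Cd63, Ndst2, Gata2, Il1rl1 and Fcer1g) was 0.05, -0.10 and 0.06 in these contrasts. In PM-A and M-A it was that of Ndst2, which most cells express. Single genes differed more, with Il1rl1 at -0.55 and Fcer1g at 1.50 in M-A. All 5 are also made by other cells, so their median does not show whether mast cell genes followed. Over all 20 genes, 1 had all 4 later libraries below both A-LMSC libraries and 3 (Ms4a2, Hdc and Rab27b) had all 4 above, against 10.7% of the 10279 in either direction.

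The one that was lower was Il1rl1, the IL-33 receptor, which fibroblasts and lymphocytes also make. It stood at 4.35 and 3.89 FPKM in A-LMSCs, 2.41 and 1.50 in PM-LMSCs, and 2.05 and 2.99 in M-LMSCs. Its log2 difference from A-LMSCs was -0.81 (SE 0.199, limma adjusted p = 0.449) for PM-LMSCs and -0.55 (SE 0.199, limma adjusted p = 0.285) for M-LMSCs. Il1rl1 was lowest in PM-LMSC replicate 2, whereas Mcpt8 and Gzme were lowest in M-LMSC replicate 2.

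Kit, the stem cell factor receptor that mast cells need, was low, at 0.0629 and 0.0661 FPKM in A-LMSCs, 0.0366 and 0.0291 in PM-LMSCs, and 0.0327 and 0.0977 in M-LMSCs. Its highest library, on 21 fragments, was M-LMSC replicate 2, where Mcpt8 was lowest. Ms4a2, the beta chain of the IgE receptor, did not exceed 0.202 FPKM and was highest in M-LMSCs. Hdc, the histamine-forming enzyme, did not exceed 0.0503 FPKM, and Hpgds, the prostaglandin D synthase of mast cells, did not exceed 0.0705. Kit, Ms4a2, Hdc and Cpa3 were thus at or near 0 in every library. Among the proteases that mark mast cells, Mcpt2, Mcpt4, Cma1 and Tpsb2 were low too. Mcpt1 and Tpsab1 were higher, at 2.75 and 2.89 FPKM and at 0.358 and 0.537 FPKM in A-LMSCs. The part of mast cells in the levels of Mcpt8 and Gzme was not tested.

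Fcer1g, the signalling chain that mast cells share with macrophages, went the other way, at 1.02 and 0.676 FPKM in A-LMSCs, 1.81 and 0.706 in PM-LMSCs, and 4.29 and 4.09 in M-LMSCs. Its M-A log2 difference was 1.50 (SE 0.237, limma adjusted p = 0.0932). With the replicate number as a block, which treats same-numbered libraries as pairs, limma called it higher in M-A (SE 0.165, adjusted p = 0.0157) and in M-PM (log2 difference 1.25, adjusted p = 0.0472), where 2.28% and 0.272% of all genes tested were called higher. Gata2, a transcription factor of mast cells and basophils, was 4.0 and 3.37, 4.70 and 3.86, and 5.98 and 3.30 FPKM in the same order, so it overlapped between stages and was high in M-LMSC replicate 1. Cd63 and Ndst2, which most cells express, ranged from 807 to 1003 and from 7.60 to 9.33 FPKM. Lat2, Srgn and Mitf were below 1 FPKM and higher in both M-LMSC libraries than in all 4 others. Slc18a2, Alox5 and Ltc4s were also below 1 FPKM, and their stages overlapped. The mean of Slc18a2 was highest in A-LMSCs, at 0.269 FPKM against 0.187 in PM-LMSCs and 0.198 in M-LMSCs.

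**Figure D3:**
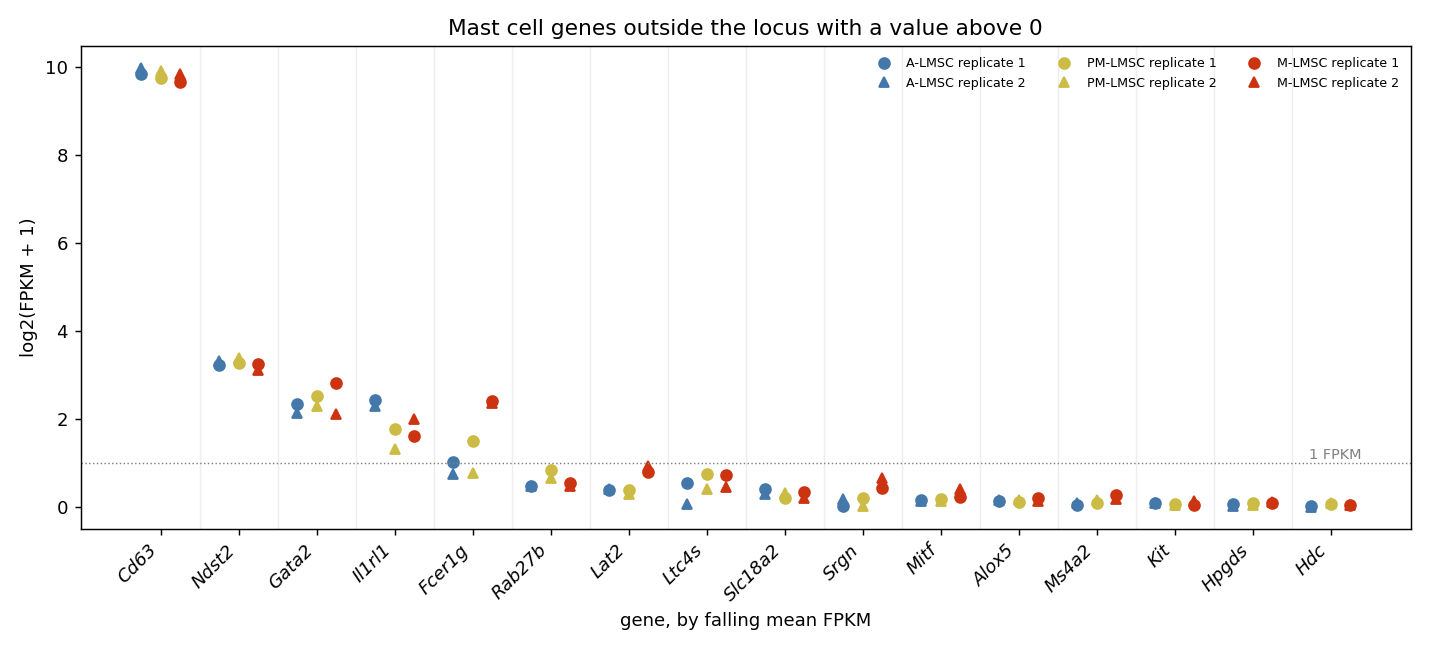
Level as log2(FPKM + 1) (y axis) of the 16 mast cell genes outside the cluster with a value above 0, ordered by mean (x axis), in the 6 libraries. The dotted line marks 1 FPKM. Il1rl1 is the gene whose A-LMSC points lie above all later ones, and Fcer1g has its M-LMSC points on top, at 4.29 and 4.09 FPKM.

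Genes of basophils and cytotoxic lymphocytes, the cells from which Mcpt8 and granzymes are best known, were looked at beside the proteases. Of 7 basophil genes, Prss34, a basophil protease, was listed at 0 in all 6 libraries, and Cd200r3, a receptor of basophils and mast cells, reached 0.0242 FPKM. The growth factor Csf1 (174 to 378 FPKM), the interleukin-3 receptor chain Il3ra (12.7 to 18.3) and the integrin Itga2 (5.81 to 9.42), which other cells also express, were well above 1 FPKM, and Il4 and Il18rap stayed below it, at up to 0.222 and 0.845. Of the 3 tested (Csf1, Il3ra and Itga2), 0 passed an adjusted p of 0.05 or an unadjusted p of 0.05 in limma in any contrast. Of 17 cytotoxic lymphocyte genes, 7 were listed at 0 in all 6 libraries, among them Gzma, the pore former Prf1 and the killer cell receptor Ncr1. The summed level of the 17 was 0.864 and 0.737 FPKM in A-LMSCs, 0.952 and 0.919 in PM-LMSCs, and 1.95 and 1.32 in M-LMSCs. Most of the M-LMSC sum was Nkg7, a granule membrane gene of killer cells, at 1.47 and 0.716 FPKM. Prss34, Cd200r3, Gzma and Prf1 were thus at or near 0, while Csf1, Il3ra, Itga2 and, in M-LMSC replicate 1, Nkg7 were above 1 FPKM. Il18rap was higher in all 4 later libraries than in both A-LMSC libraries. The part of basophils and lymphocytes in the levels of Mcpt8 and Gzme was not tested.

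Blood cell genes were placed higher at the metastatic stage, but for the most part not at the pre-metastatic stage, although Mcpt8 and Gzme were lower at both later stages. All 14 pan-haematopoietic genes were higher in both M-LMSC libraries than in both A-LMSC libraries, where 27.1% of all genes tested were. In PM-LMSCs, 2 of the 14 were higher in this way and 1 was lower, where 19.6% and 19.7% of all genes tested were, and the median log2 difference of the 6 tested was 0.06. Their summed FPKM, relative to the A-LMSC mean, was 112% and 88.4% in A-LMSCs, 143% and 139% in PM-LMSCs, and 190% and 182% in M-LMSCs. One gene, Arhgdib, made up most of that sum, at 42.6 and 32.2 FPKM in A-LMSCs, 52.8 and 60.9 in PM-LMSCs, and 51.1 and 58.9 in M-LMSCs. Without it the sum was 106% and 94.1%, 147% and 82.8%, and 317% and 241%, so that PM-LMSC replicate 2 was below both A-LMSC libraries. limma called 0 of the 6 tested in any contrast, with 6 of 6 at an unadjusted p under 0.05 in M-A (1 in PM-A and 5 in M-PM). With the replicate block it called 4 of them higher in M-A (Laptm5, Cd53, Tyrobp and Lcp1) and 2 in M-PM (Cd53 and Tyrobp). Of all genes tested, 2.28% and 0.272% were called higher in these contrasts with the block. Ptprc, which encodes the CD45 used to remove these cells, stayed between 0.0254 and 0.0987 FPKM. The 13 macrophage genes summed, on the same relative scale, to 129% and 56.6% in PM-LMSCs and to 318% and 235% in M-LMSCs. All 13 had both M-LMSC libraries above both A-LMSC libraries, whereas 1 had both PM-LMSC libraries above them. Of the 9 tested, limma called 0 in any contrast, with 0, 9 and 9 at an unadjusted p under 0.05. With the block it called 7 higher in M-A, where 2.28% of all genes tested were called higher. The summed stromal genes, which label these cells, stayed between 86.0% and 101%, a sum led by Acta2, at up to 6311 FPKM. Single stromal genes varied more, from 67.2% of the A-LMSC mean for Pdgfra in PM-LMSC replicate 1 to 210% for Col3a1 in M-LMSC replicate 2, and without Acta2 the sum was between 83.0% and 128%. The summed mesothelial genes were 198% and 279% in PM-LMSCs and 134% and 332% in M-LMSCs, highest in the library in which Mcpt8 was lowest, at 10.7% of its A-LMSC mean. The part of these cell types in the level of the proteases was not tested.

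**Figure D4:**
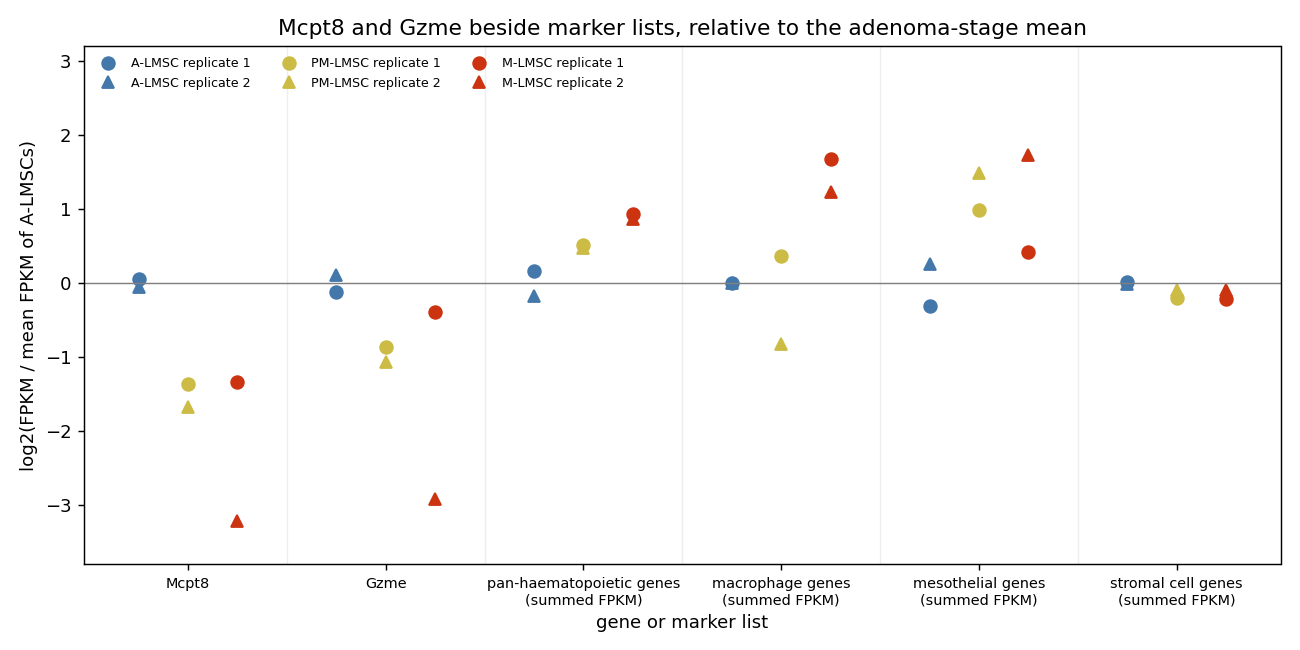
Mcpt8, Gzme and the summed FPKM of 4 marker lists in each library as log2 of the ratio to the A-LMSC mean (y axis), by gene or list (x axis). Mcpt8 and Gzme lie below 0 in all 4 later libraries, the pan-haematopoietic sum, which is mostly Arhgdib, lies above 0 in them, and the stromal sum stays near 0, between 86.0% and 101% of the A-LMSC mean.

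The enzymes and inhibitors that act on these proteases were looked at too. Of 7 granule processing and storage genes, 3 had both PM-LMSC libraries below both A-LMSC libraries and 0 above. Of 7 serpins, 2 were below and 3 above. In M-LMSCs these counts were 1 and 1, and 0 and 3. Among all genes tested, 19.7% were lower and 19.6% higher in PM-LMSCs, and 24.4% and 27.1% in M-LMSCs. All 4 later libraries were below both A-LMSC libraries for 0 genes of either list. They were above them for 0 granule genes and for 2 serpins, against 10.7% of all genes tested in either direction. Ctsc (cathepsin C), which activates chymases and granzymes by trimming them, was 6.89 and 7.28 FPKM in A-LMSCs, 5.69 and 5.07 in PM-LMSCs, and 6.74 and 8.48 in M-LMSCs. Of 7 granule processing and storage genes, 6 were tested and 0 passed an adjusted p of 0.05 in limma in any contrast, with 1, 0 and 1 at an unadjusted p under 0.05. All 7 serpins that inhibit granzymes or chymases were tested and 0 passed, with 2 at an unadjusted p under 0.05 in each contrast. With the replicate block, 2 serpins were called higher in M-A, where 2.28% of all genes tested were. One was Serpina3n, a chymotrypsin and granzyme inhibitor, at 38.8 and 36.0 FPKM in A-LMSCs, 31.1 and 33.5 in PM-LMSCs, and 58.0 and 60.8 in M-LMSCs (limma adjusted p = 0.0251 with the block, 0.0959 without). The other was Serpinb6b, with a log2 difference of 0.62 (limma adjusted p = 0.0275 with the block, 0.257 without).

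Of 8 ligands that grow or activate mast cells, 3 were tested and 0 passed in any contrast, with 0 at an unadjusted p under 0.05. Kitl, the ligand of Kit, was 4.60 and 3.22 FPKM in A-LMSCs, 8.70 and 5.04 in PM-LMSCs, and 6.41 and 2.89 in M-LMSCs. It was lowest in M-LMSC replicate 2, and replicate 1 was the higher at each stage. Il33, the ligand of Il1rl1, was at most 0.495 FPKM in 5 libraries and 3.67 in M-LMSC replicate 2. Of the 7 chymase substrates, 4 were tested and 0 passed without the block, with 1, 2 and 0 at an unadjusted p under 0.05. The gelatinase Mmp2 was called higher in M-A with the replicate block (log2 difference 0.92, limma adjusted p = 0.0456, against 0.209 without). Of all genes tested, 2.28% were called higher in that fit.

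The 10 genes whose profile over the 6 libraries was most like that of Mcpt8, by Pearson's r of log2(FPKM + 1), were Osr1, Axl, Eif1, Adm, Gdnf, Wdr1, Emilin2, Kctd10, Akap1 and Chst1, with r from 0.974 to 0.993. The points share libraries and stages, and the genes were picked for this likeness among 10279, so no test is given. None of the 10 was a mast cell gene of the lists used. Only 5 of the 20 mast cell genes outside the cluster reached the mean of 1 FPKM needed to be picked, and the members were left out. Little can therefore be read from that absence. Osr1, a transcription factor of embryonic mesenchyme, was the closest, at 66.4 and 65.7 FPKM in A-LMSCs, 48.6 and 48.4 in PM-LMSCs, and 49.9 and 38.8 in M-LMSCs. Adm, the vasodilator peptide adrenomedullin, was 84.3 and 82.2, 58.9 and 60.1, and 66.6 and 41.7 FPKM. Both were lowest in M-LMSC replicate 2, as was Mcpt8, but by a smaller ratio. The members Mcpt1 and Gzme had r of 0.967 and 0.943 with Mcpt8, below those 10 genes.

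**Figure D5:**
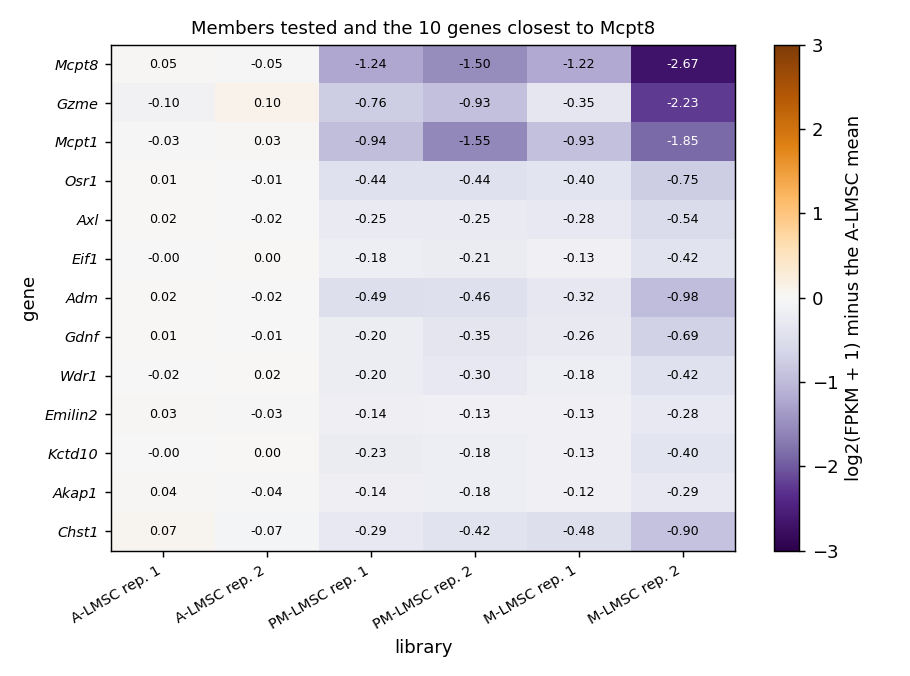
Difference of log2(FPKM + 1) from the A-LMSC mean (color and number) for Mcpt8, Gzme, Mcpt1 and the 10 genes closest to Mcpt8 (y axis) in each library (x axis). The 3 proteases are darkest in M-LMSC replicate 2, and all 10 other genes, which were picked for their likeness to Mcpt8, are also lowest in that library and have both A-LMSC libraries above the later ones.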

How the data were processed

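The authors deposited FPKM values (fragments scaled to gene length and library size) for 34745 genes in 6 libraries of cultured LMSCs, 2 per stage. The submitters' processing notes name TopHat2 2.0.9 and mm10, and the counter and annotation are not given in the sources used here. All 6 columns were matched to samples by their labels, with 0 columns unmapped. Of 57 repeated gene names, the first listed was used. Coordinates came from GENCODE M21 (34267 identifiers matched, 478 did not). The genes described and the lists were chosen with earlier results of these data known, and genes of other lists named beyond the rule below, such as Prss34, Prf1, Ctsc, Kitl and Il33, were chosen after their values were seen.

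FPKM values were analysed as log2(FPKM + 1). The 10279 genes whose mean reached 1 FPKM were fitted in R 4.3.3 with limma 3.58.1, 1 mean per stage, eBayes with a trend, and Benjamini-Hochberg adjustment, with calls at 0.05. No count model was used. Counts of genes at an unadjusted p under 0.05 are given without the share of all genes, so nothing is read from them. Depth was estimated from the spacing of low FPKM values at between 14800000 and 20800000 fragments a library, and between 96.0% and 96.9% of low values then lay within 0.1 of whole fragments. FPKM summed to between 258249 and 271408 a library. Fragments of a gene with low counts are the fewest that make its 6 values whole within a limited range of gene lengths. They can thus be a multiple of the true counts. Those of genes with more fragments, such as Mcpt8 and Gzme, were rounded from the annotated exon length and the estimated depth.

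Same-numbered libraries deviated together from their stage means in every pair of stages, with correlations over genes of 0.238, 0.307 and 0.491. Those correlations came from the same libraries, and the labels, which give the replicate numbers, do not say that same-numbered libraries are related. The numbers were therefore treated as pairs only in an alternative fit, the replicate block, whose calls rest on that pairing. It is given where it changed a call of a list, other than the 10 genes closest to Mcpt8, for which no test is given. Other alternatives were a pseudocount of 0.1, no filter on low values, quantile normalization, centering on the library median, only the 2 stages compared, and leaving out each library. The rule for naming took in all 10 genes, all genes of the cluster and of the mast cell list, and 5 flanking genes on each side. It also took in the 10 closest to Mcpt8, and up to 3 genes of each other list that passed or were highest. Of the flanking genes, only Nynrin and Parp4 are printed here. The fit was tested on simulated data. Promoters came from RefSeq (GRCm38.p6, 14 of 18 genes matched), and sequences were compared in Python 3.11.15 with biopython 1.88.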

Additional observations from a re-analysis of the deposited data

Results flagged for a closer look

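Parp4, a gene beside the chymase and granzyme cluster, was below both A-LMSC libraries in both PM-LMSC libraries and above them in both M-LMSC libraries, with a log2 difference of M-LMSCs from PM-LMSCs of 0.193. Serpina3n moved in the same opposite ways, with a difference of 0.861. Both were flagged for that arrangement, which by itself places both M-LMSC libraries above both PM-LMSC libraries. The M-LMSC against PM-LMSC contrast is therefore no independent test of it. By limma that contrast did not pass for either (adjusted p = 0.676 for Parp4 and 0.0961 for Serpina3n). With the replicate block, a pairing that the labels do not give, it passed for Serpina3n (limma adjusted p = 0.0397). Of all genes tested, 0.272% were called higher there. Lat2 and Coro1a, at 0.531 and 0.303, had the same arrangement below 1 FPKM, so they were tested only with no filter on low values, where limma's adjusted p was 0.242 for Lat2 and 0.4325 for Coro1a.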

How the results depend on the processing

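By limma, 4, 7 and 3 genes were called in the PM-A, M-A and M-PM contrasts. With no filter on low values the first 2 counts were 1 and 3, and with only the libraries of the 2 stages compared they were 21 and 1. With the replicate block the 3 counts were 30, 403 and 43, and when each library was left out in turn they ranged from 1 to 28, from 1 to 90 and from 2 to 25. A lone library of a stage was then assumed to vary like the others. The replicate block called 1 mast cell gene outside the cluster in each contrast with M-LMSCs (0 without it) and 4 and 2 pan-haematopoietic genes in M-A and M-PM (0 without it). Leaving out libraries gave 0 to 1 pan-haematopoietic genes against A-LMSCs, the 1 without M-LMSC replicate 2. The other counts for these lists stayed at 0, and the cause of these changes was not tested.

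For Mcpt8, Gzme and Mcpt1 the sign of the differences from A-LMSCs was the same under all 12 alternatives, while M-LMSCs against PM-LMSCs turned without M-LMSC replicate 2 and, for Mcpt1, also without PM-LMSC replicate 1. There were 246 differences of named genes, among them those of Mcpt8, Gzme and Mcpt1, which were not tested. The replicate block moved 29 past the threshold and left 217 as they were. The only one called without the block, Krt19 in M-A, kept its sign under every alternative. With 2 libraries a stage and levels of a few fragments, Mcpt2, Mcpt4, Cma1, Cpa3, Tpsb2 and Gzmd could not be compared between stages.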

Other observations

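Krt19, a keratin of epithelial and mesothelial cells, was 13.8 and 17.3 FPKM in A-LMSCs, 8.09 and 9.28 in PM-LMSCs, and 4.92 and 4.49 in M-LMSCs. It was called lower in M-A (log2 difference -1.53, SE 0.145, limma adjusted p = 0.0395), where 0.0681% of all genes tested were called in either direction. Krt19 lost that call with no filter on low values (adjusted p = 0.1185), with only the libraries of the 2 stages compared (0.121), and without A-LMSC replicate 1 (0.0978), A-LMSC replicate 2 (0.267), PM-LMSC replicate 1 (0.119) or PM-LMSC replicate 2 (0.120). The other 7 mesothelial genes had both PM-LMSC libraries above both A-LMSC libraries, where 19.6% of all genes tested did. With the replicate block, limma called 3 of these 7 higher in PM-A (Lrrn4, Krt8 and Krt18), where 30 of all genes tested were called in either direction. The block called 6 of them higher in M-A (Upk3b, Lrrn4, Wt1, Krt8, Krt18 and Upk1b), where 2.28% of all genes tested were called higher. Without the block 0 of them were called higher in either contrast. Epcam, an epithelial adhesion gene, was listed at 0 in the 4 libraries of the earlier stages and at 0.326 and 0.473 FPKM in M-LMSCs.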
